A study of Sus scrofa with 14 samples.

Results

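The transcriptomes of porcine cells from 2 origins were compared in one medium: induced pluripotent lines made with episomal plasmids (Epi-piPSC-FL6i) and an embryonic stem cell-like line grown from blastocysts (pESCLC-FL6i). The members were the 2 samples of each of these groups, 4 of the 14 samples of the series, and 14452 of 19588 genes, namely those that reached 10 normalized counts in 2 or more of the 4. The Epi-piPSC-FL6i samples were lines C10 at passage 12 and C11 at passage 11, from porcine fetal fibroblasts electroporated with plasmids for human POU5F1, SOX2, KLF4, LIN28 and L-MYC and a short hairpin RNA, in colonies picked at day 17. The pESCLC-FL6i samples carried the labels of line C2 at passages 3 and 9, from blastocyst outgrowths moved into FL6i at day 8, so by the labels their spread is that between passages of one line. FL6i holds FGF2 and LIF with inhibitors of MAPK14 (p38), MAPK8 (JNK), TGFB, GSK3A, MAP2K (the kinases upstream of ERK) and BMP, and all cells grew on irradiated mouse feeder cells, which are a fibroblast layer. For comparison across media, the same 2 origins were available in FLB2i, a medium with LIF, FGF2, BMP4 and inhibitors of GSK3A and TGFB. The pESCLC-FLB2i samples were line B1 at passages 3 and 6, moved from FL6i at day 18, and those of Epi-piPSC-FLB2i came from passages 9 and 12 of line B5, reprogrammed with the same plasmids.

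Pluripotent cells are held by a small network of transcription and RNA-binding factors, among them POU5F1, SOX2, NANOG and LIN28A, and are epithelial cells joined by E-cadherin (CDH1). The state of the blastocyst epiblast, called naive, is marked by factors such as ESRRB and TFAP2C, and the later, primed state by OTX2 and NODAL. HOX genes lie in 4 clusters and are silent in pluripotent cells. They are switched on along the cluster as cells take a position along the body axis, and in the nervous system they mark hindbrain and spinal cord.

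The pESCLC-FL6i libraries held 15179200 reads on genes at passage 3 and 6193659 at passage 9, and the Epi-piPSC-FL6i libraries held 17582502 (C10) and 17094484 (C11). At these depths 3 reads, used as the floor for a gene at 0, correspond to 3.15, 7.86, 2.90 and 3.00 normalized counts. The Epi-piPSC-FL6i pair was close, with a Pearson r across the 14452 genes of 0.986 on log2(normalized count + 1) and 18 genes at least 3 apart on that scale. The pESCLC-FL6i pair was not, with r = 0.829 and 839 genes that far apart. Both passages were less like the Epi-piPSC-FL6i lines than like each other (r = 0.775 and 0.761 for passage 3 and 0.671 and 0.665 for passage 9). Genes are not independent replicates, and these correlations are descriptions.

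The passage 9 library stood apart from the other 3 in fibroblast and in proliferation genes. The summed level of 30 fibroblast and mesenchyme markers was 59198 and 483238 normalized counts in pESCLC-FL6i and 73565 and 76472 in Epi-piPSC-FL6i. COL1A1, the alpha 1 chain of type I collagen and the most abundant of them, had 165 and 155568 normalized counts at passages 3 and 9 of pESCLC-FL6i and 5575 and 7468 in lines C10 and C11. Of these 30 markers only COL6A3 was at 0 in a library, that of passage 3, where passage 9 had 726. Summed over 18 proliferation genes the level was 58362 and 6597 normalized counts in pESCLC-FL6i and 85614 and 84928 in Epi-piPSC-FL6i, the passage 9 library being the lowest. The Y-linked genes EIF1AY and KDM5D, a translation factor and a histone demethylase, differed between these libraries too. EIF1AY had 7.34 and 86.5 normalized counts at passages 3 and 9 of pESCLC-FL6i and 577 and 548 in lines C10 and C11, and KDM5D had 0, 26.2, 242 and 181 in the same order. Passage 3 thus had no KDM5D read and passage 9 had 26.2 normalized counts, so that it is in doubt whether the passage 9 library is of the same line as passage 3, and this was not tested. If it is not, the SE of pESCLC-FL6i holds a difference between lines as well. The part of these differences in the results was not tested, and results are therefore also given without the passage 9 library. That fit leaves only passage 3 in pESCLC-FL6i, so its error comes from lines C10 and C11 alone. Its counts of genes called measure no spread between pESCLC-FL6i samples. They are descriptions, in which rose and fell give the direction against passage 3. In bulk RNA, fewer cells of a type and less RNA per cell cannot be told apart.

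**Figure D1:**
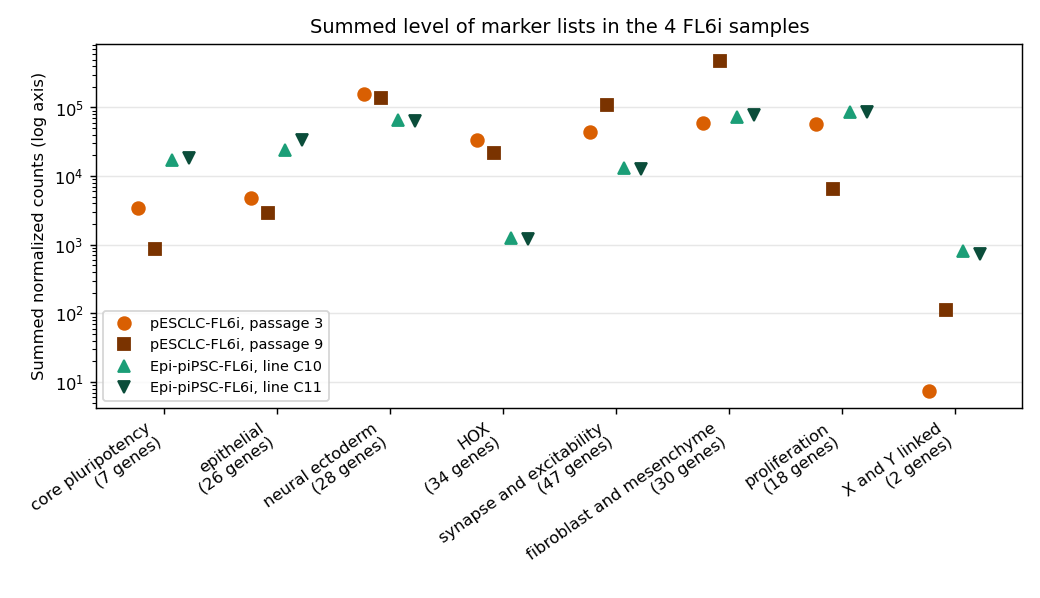
Summed normalized counts (log axis) of 8 gene lists in each of the 4 FL6i samples, with the number of genes of each list in the table below its name and one symbol per sample. The passage 9 symbol of pESCLC-FL6i lies highest for fibroblast and mesenchyme (483238) and lowest for proliferation (6597), and both pESCLC-FL6i symbols lie above both Epi-piPSC-FL6i symbols for the neural ectoderm, HOX and synapse lists and below them for core pluripotency and epithelial genes.

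Between the 2 origins 1771 of 14452 genes (12.3%) passed limma at an adjusted p of at most 0.05, 620 higher in Epi-piPSC-FL6i (4.29%) and 1151 lower (7.96%). Of these, 960 (6.64%) also changed by 3 or more on the log2 scale and are called DEGs, 257 higher (1.78%) and 703 lower (4.86%). Fold changes are Epi-piPSC-FL6i minus pESCLC-FL6i on the log2(normalized count + 1) scale, which understates the change of low genes, with a standard error (SE, the value after ±) from n = 2 per group. The samples of the groups did not overlap for any DEG, which also held for 33.6% of all genes with Epi-piPSC-FL6i higher and 37.1% with pESCLC-FL6i higher. DESeq2 and edgeR, run on whole reads recovered from the table, called 916 and 721 of these 960 as DEGs. With the passage 9 library left out, limma called 7299 genes (50.5%) and 1413 DEGs (9.78%), 546 higher (3.78%) and 867 lower (6%). In that fit the error came from lines C10 and C11 alone. None of the 960 could change sign there, since their samples do not overlap. Of them 882 kept a log2 fold change of at least 3, and without passage 3 the number was 929. When line C10 or line C11 was left out, limma called 0 genes (1859 and 1726 at an unadjusted p under 0.05). In the limma fit with all 4 samples, the smallest adjusted p that any gene reached was 0.0212.

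**Figure D2:**
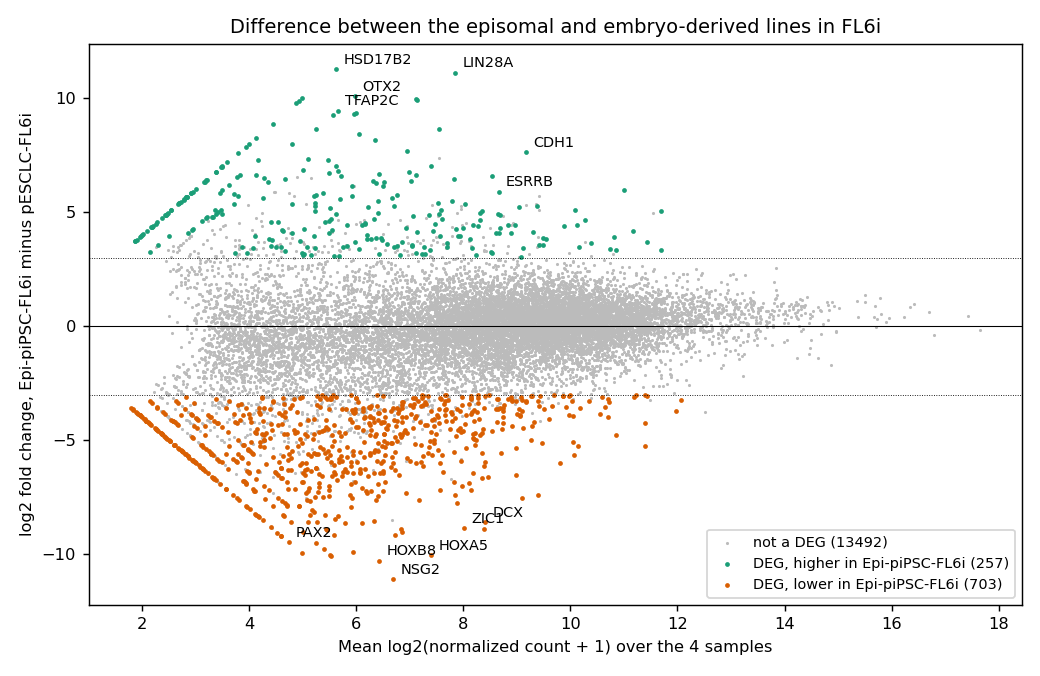
Log2 fold change of each of the 14452 genes, Epi-piPSC-FL6i minus pESCLC-FL6i, against its mean log2(normalized count + 1) over the 4 samples, with DEGs coloured by direction and dotted lines at the fold change a DEG needs. The 703 DEGs lower in Epi-piPSC-FL6i outnumber the 257 higher ones, and the named genes at the edges include LIN28A (11.09), HSD17B2 (11.24), HOXA5 (-10.04) and NSG2 (-11.09). The diagonal rows of points at the left are genes at or near 0 in one group.

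LIN28A and TRIM71, RNA regulators of pluripotent cells, were high in Epi-piPSC-FL6i and low in pESCLC-FL6i, while NANOG was low in both. LIN28A (chr6:83806178-83818550), an RNA-binding protein that blocks the maturation of let-7 microRNAs, had 23.1 and 0 normalized counts at passages 3 and 9 of pESCLC-FL6i and 10048 and 11449.5 in lines C10 and C11. The pairs did not overlap, with a log2 fold change of 11.09 ± 1.64 (SE, limma adjusted p = 0.0353). The plasmids carried human LIN28, and reads of the plasmid and the porcine gene cannot be told apart in this table. LIN28A was at 0 in the passage 9 library, and without that library the change was 8.799. TRIM71, a stem cell ubiquitin ligase that let-7 represses and that was not on the plasmids, had 17.8 and 5.24 in pESCLC-FL6i and 648 and 889 in Epi-piPSC-FL6i and rose by 6.13 ± 0.70 (SE, limma adjusted p = 0.0258). Of 14 core pluripotency genes listed, 7 were matched by symbol and 5 passed the filter on low values. Of these 5, 2 rose in Epi-piPSC-FL6i and none fell, beside 4.29% and 7.96% of all genes, and the median log2 fold change was 4.51, beside -0.05 over all genes tested. LIN28B, the paralogue of LIN28A, did not pass (4.51 ± 1.58, limma adjusted p = 0.133), its levels being 473 and 20.96 in pESCLC-FL6i and 2377 and 2262 in Epi-piPSC-FL6i. With passage 9 left out its log2 fold change was 2.29.

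NANOG was low in both origins and did not pass the filter on low values. It had 15.7 and 7.86 normalized counts at passages 3 and 9 of pESCLC-FL6i and 0.965 and 0.999 in lines C10 and C11. The passage 9 value is at the floor of 3 reads and those of C10 and C11 are below it, so the origins are not ranked. PRDM14, a factor of the naive network, had no read in any of the 4 libraries. POU5F1, SOX2, MYCL, TET2, DPPA3 and ZFP42 had no match by symbol and are not analysed here. LIN28A, TRIM71 and NANOG thus go against the stem cell-like label of pESCLC-FL6i, and NANOG goes against the pluripotent label of Epi-piPSC-FL6i as well, and the groups are called here by their labels only. Of the 6 plasmid-encoded factors or targets listed 3 were matched, and LIN28A rose. KLF4 had 20.98 and 1653 normalized counts at passages 3 and 9 of pESCLC-FL6i and 1182 and 1641 in lines C10 and C11, with passage 3 below and passage 9 above both Epi-piPSC-FL6i lines, and the difference did not pass (2.87 ± 2.21, limma adjusted p = 0.396). Its log2 fold change was 5.99 without passage 9 and -0.25 without passage 3.

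Of 24 naive-associated genes listed, 18 were in the table and 10 passed the filter, and 3 of the 10 rose in Epi-piPSC-FL6i and none fell, beside 4.29% and 7.96% of all genes (median 1.74). ESRRB (chr7:99511135-99699478), an orphan nuclear receptor of the naive network, had 91.2 and 28.8 normalized counts at passages 3 and 9 of pESCLC-FL6i and 2819 and 3413 in lines C10 and C11, a log2 fold change of 5.89 ± 0.63 (SE, limma adjusted p = 0.0236). TFAP2C, an AP-2 factor of naive and germ cells, had 0 and 2.62 in pESCLC-FL6i and 1088 and 1608 in Epi-piPSC-FL6i (9.44 ± 0.81), and passed the filter only through Epi-piPSC-FL6i, where it is high. The third was CDH1, described with the epithelial genes. TBX3, NR5A2, DPPA5, FGF4, KLF17, DNMT3L, NR0B1 and HORMAD1 did not pass the filter in this comparison. Of 17 primed-associated genes, all tested, 2 rose and 2 fell (median 0.18). Among these calls OTX2, NODAL and FOXD3 had one origin below the filter's minimum in both samples, so that they could enter only through the origin where they are high. OTX2, the homeobox factor of the primed epiblast and the anterior brain, had 0 and 2.62 normalized counts at passages 3 and 9 of pESCLC-FL6i and 1867 and 2283 in lines C10 and C11, and NODAL, the TGFB-family ligand of the epiblast, had 2.098 and 5.24 in pESCLC-FL6i and 350.5 and 604 in Epi-piPSC-FL6i. Both rose, by 10.08 ± 0.78 and 6.71 ± 0.63. The genes that fell were ZIC2 (-7.18 ± 0.44), a zinc finger factor of epiblast and neural tube, and FOXD3 (-5.41 ± 0.99), a forkhead factor of epiblast and neural crest, which edgeR did not call (adjusted p = 0.0625). With the passage 9 library left out, the naive list had 7 higher and 2 lower, and the primed list 6 and 5, against 26.3% and 24.3% of all genes.

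Nearly as many epithelial genes rose in Epi-piPSC-FL6i as did not pass. Of 26 epithelial genes measured, 21 passed the filter, and 10 of these 21 rose and none fell, beside 4.29% and 7.96% of all genes, with a median log2 fold change of 3.93. In 5 of the 21, one origin was below the filter's minimum in both samples, KRT7, CLDN6 and SPINT1 being those among the calls. Without the passage 9 library 13 rose and 2 fell (61.9% and 9.52%, beside 26.3% and 24.3% of all genes). The genes that fell there were SPINT2, a protease inhibitor, and LAMA5, a laminin chain. With all samples SPINT2 had 24.1 and 105 in pESCLC-FL6i and 0.965 and 2.997 in Epi-piPSC-FL6i without passing (-4.20 ± 0.94, limma adjusted p = 0.0628), and the log2 fold change of LAMA5 was -0.99 (adjusted p = 0.051). CDH1 (chr6:18075487-18155986), which joins epithelial and pluripotent cells, had 18.9 and 83.8 normalized counts at passages 3 and 9 of pESCLC-FL6i and 6937 and 9419 in lines C10 and C11, a change of 7.62 ± 0.78 (SE, limma adjusted p = 0.0233). CLDN6, a tight junction claudin of embryonic epithelia, had 7.34 and 7.86 in pESCLC-FL6i and 1717 and 1778 in Epi-piPSC-FL6i, with close duplicates in both groups (7.67 ± 0.36). ESRP1, an epithelial splicing factor, had 10.5 and 15.7 in pESCLC-FL6i and 1124 and 1701 in Epi-piPSC-FL6i (6.64 ± 0.44). The others were ST14, a membrane protease (8.43 ± 1.35), OCLN, the tight junction protein occludin (5.63 ± 0.42), EPCAM, an epithelial adhesion protein (4.92 ± 0.80), SPINT1, an inhibitor of ST14 (3.93 ± 0.60), and the keratins KRT7, KRT8 and KRT18 (4.99, 5.10 and 4.28). ZEB1, a repressor of CDH1, was lower in Epi-piPSC-FL6i, with 2183 and 1469.7 in pESCLC-FL6i and 238 and 145 in Epi-piPSC-FL6i (-3.26 ± 0.38, limma adjusted p = 0.0265). GRHL2, another epithelial regulator, was near 0 in all 4 libraries. KRT7 was among the genes that edgeR did not call (adjusted p = 0.0569).

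The 12 DEGs with the largest rise in Epi-piPSC-FL6i, among those with a symbol and a mean of at least 100 normalized counts in the higher group, were LIN28A, OTX2, TFAP2C and the 9 described next. HSD17B2, an enzyme that inactivates oestradiol and testosterone, had no read in either pESCLC-FL6i library and 2155 and 2727 normalized counts in lines C10 and C11. Against the floor of 3 reads per library it was at least 444-fold higher. ZSCAN10, a zinc finger factor of pluripotent cells, was likewise at 0 in both pESCLC-FL6i libraries, with 915 and 1112 in Epi-piPSC-FL6i (at least 184-fold). The same held for TFAP2D, an AP-2 factor (at least 168-fold), and HENMT1, the methyltransferase of piRNA ends (at least 164-fold). MYO1A, the brush border myosin, had 19.9 and 0 in pESCLC-FL6i and 4312 and 4350.2 in Epi-piPSC-FL6i. VRTN, a factor tied to vertebral number in pigs, had 0 and 5.24 in pESCLC-FL6i and 1301 and 1835 in Epi-piPSC-FL6i. The remaining 3 were HELT, a bHLH factor of the midbrain (9.26 ± 0.79), NXNL2, a thioredoxin-like protein of the retina (9.34 ± 1.02), and C1QL2, a synaptic C1q-like protein (8.66 ± 0.68). HSD17B2, ZSCAN10, TFAP2D, HENMT1, VRTN, HELT and NXNL2 passed the filter only through Epi-piPSC-FL6i, where they are high.

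**Figure D3:**
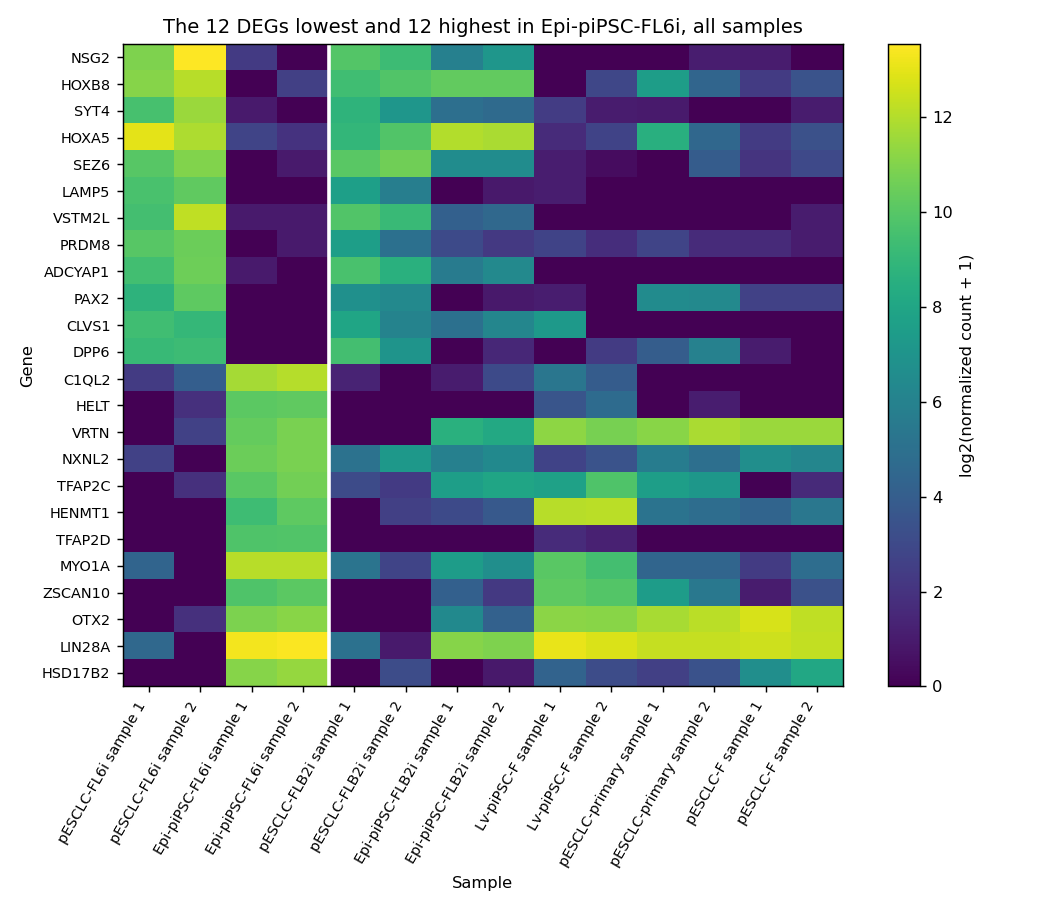
Heatmap of log2(normalized count + 1) for the 12 DEGs lowest and the 12 highest in Epi-piPSC-FL6i (rows) in all 14 samples (columns), with the 4 FL6i samples left of the white line. The lower genes are bright in both pESCLC-FL6i columns and dark in both Epi-piPSC-FL6i columns, and LIN28A, OTX2 and VRTN are also bright in the Lv-piPSC-F, pESCLC-primary and pESCLC-F columns.

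Outside FL6i, several of these higher genes were also read in samples of other groups. LIN28A was at 5185 and 5313 normalized counts in the primary outgrowths (pESCLC-primary), and at 8813 and 7007 in lentivirally induced cells. HELT and TFAP2D were near 0 outside Epi-piPSC-FL6i, apart from the lentiviral group, where HELT reached 25.4. These are levels only, without a test.

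HOX genes of 3 of the 4 clusters were expressed in pESCLC-FL6i and near 0 in Epi-piPSC-FL6i. Of 39 listed, 34 were in the table and 24 passed the filter, 17 of them with Epi-piPSC-FL6i below the filter's minimum in both samples. Of the 24, 19 fell in Epi-piPSC-FL6i and none rose, where 7.96% of all genes fell, and the median log2 fold change was -7.33. Summed over all 34 genes, the level was 33329.5 and 21380.1 normalized counts in pESCLC-FL6i and 1250.3 and 1221 in Epi-piPSC-FL6i. DESeq2 called 21 lower and edgeR 19. Without the passage 9 library limma called 23 of the 24 lower, where it called 24.3% of all genes lower.

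The HOXA genes summed to 14435 and 7079 in pESCLC-FL6i and 17.4 and 24.97 in Epi-piPSC-FL6i, and 6 of the 7 tested fell. HOXA5, a factor of the cervical and upper thoracic level, had 8053 and 3746 normalized counts at passages 3 and 9 of pESCLC-FL6i and 5.79 and 2.997 in lines C10 and C11, a change of -10.04 ± 0.57 (SE, limma adjusted p = 0.0212). HOXA9 had 3885 and 1656 in pESCLC-FL6i and 2.896 and 3.996 in Epi-piPSC-FL6i (-9.17 ± 0.58). In the HOXB cluster (chr12:24784953-24950661 in Sscrofa11.1, from the RefSeq positions of the matched genes) the sums were 9252 and 9292 in pESCLC-FL6i and 9.65 and 32.96 in Epi-piPSC-FL6i, and all 7 tested genes fell. HOXB8 had 2144 and 4315 normalized counts at passages 3 and 9 of pESCLC-FL6i and 0 and 4.99 in lines C10 and C11 (-10.28 ± 1.05, limma adjusted p = 0.0233), and HOXB6 had 1501 and 1252 in pESCLC-FL6i and 2.896 and 1.998 in Epi-piPSC-FL6i (-8.65 ± 0.44). The HOXC sums (chr5:19151096-19268267) were 5687 and 3956 in pESCLC-FL6i and 45.4 and 53.9 in Epi-piPSC-FL6i, and all 6 tested genes fell, from -5.30 for HOXC6 to -8.61 for HOXC9.

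The HOXD cluster (chr15:81900962-81990026) did not share this pattern. Its sums were 3956 and 1053 in pESCLC-FL6i and 1178 and 1109 in Epi-piPSC-FL6i, so that passage 9 lay below both Epi-piPSC-FL6i lines, and none of its 4 tested genes passed. HOXD3, HOXD4 and HOXD9 were called lower once the passage 9 library was left out. HOXD3 had 2363 and 571 normalized counts at passages 3 and 9 of pESCLC-FL6i and 514 and 456 in lines C10 and C11 (-1.26 ± 0.75, limma adjusted p = 0.291). HOXD8, a factor of the trunk, had 403 and 178 in pESCLC-FL6i and 444 and 438 in Epi-piPSC-FL6i, with both Epi-piPSC-FL6i lines above both passages. In each cluster, the highest paralogue numbers with levels over 100 normalized counts in both pESCLC-FL6i passages were HOXA10, HOXB8, HOXC10 and HOXD8. HOXB13, HOXC11 and HOXD12 had at most 2.997 normalized counts in any of the 4 libraries.

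**Figure D4:**
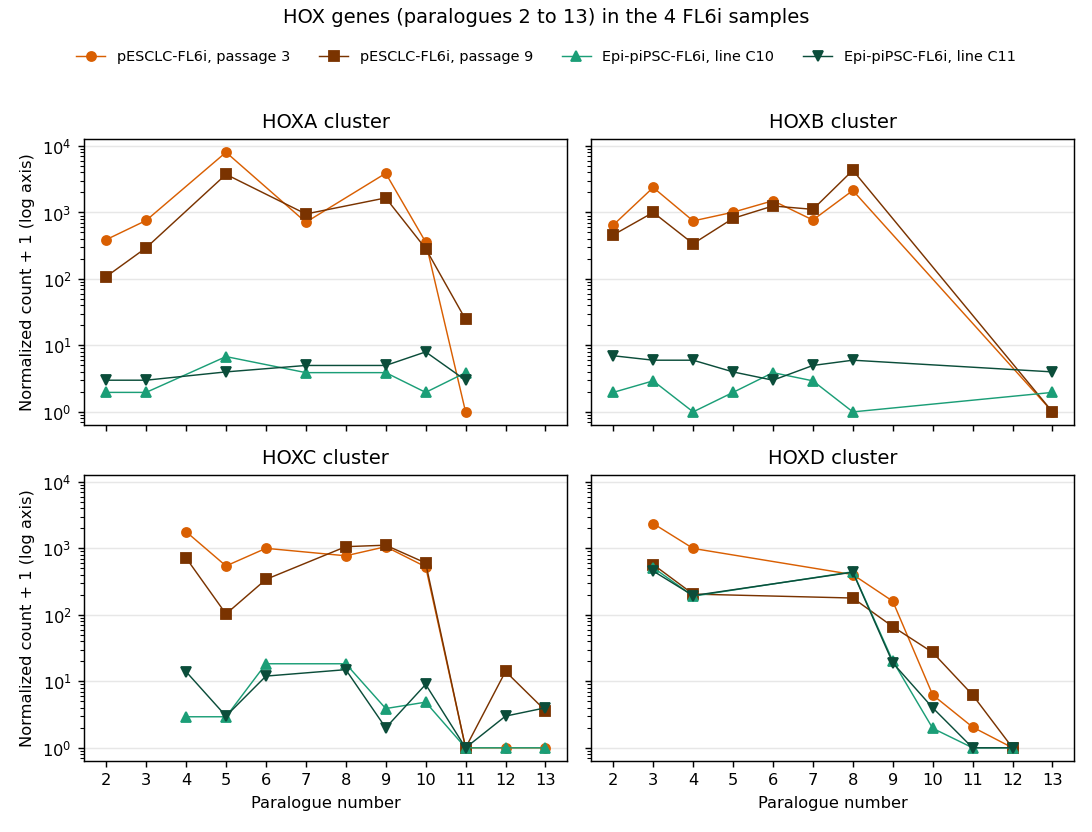
Normalized count + 1 (log axis) of the HOX genes with paralogue numbers 2 to 13 in the table against that number, one panel per cluster, with one symbol and line per FL6i sample. In HOXA, HOXB and HOXC the pESCLC-FL6i symbols lie above the Epi-piPSC-FL6i symbols up to paralogue 10 where a gene is present, and in HOXD the Epi-piPSC-FL6i symbols lie near those of passage 9 at paralogues 3 and 4 and above both passages at paralogue 8.

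Neural genes that passed were mostly lower in Epi-piPSC-FL6i. Of 28 neural ectoderm genes measured, 24 passed the filter, and 9 of these fell in Epi-piPSC-FL6i and 1 rose (37.5% and 4.17%, beside 7.96% and 4.29% of all genes), with a median of -2.55. In 6 of the 24, one origin was below the filter's minimum in both samples, and of the calls these were LHX2, NEUROD1, NEUROG1, NEUROG2 and RAX. Without the passage 9 library 17 fell and 3 rose (70.8% and 12.5%, beside 24.3% and 26.3%). Their summed level was 155989 and 136661 normalized counts in pESCLC-FL6i and 65617 and 63345 in Epi-piPSC-FL6i. ZIC1 (chr13:87740769-87750258), a zinc finger factor of the dorsal neural tube, had 5779 and 5321 normalized counts at passages 3 and 9 of pESCLC-FL6i and 23.2 and 4.99 in lines C10 and C11 (-8.85 ± 0.76, limma adjusted p = 0.0212). DCX, doublecortin of migrating neurons, had 4047 and 10906 in pESCLC-FL6i and 20.3 and 12.99 in Epi-piPSC-FL6i (-8.59 ± 0.60, limma adjusted p = 0.0212). The bHLH factors NEUROG1, NEUROG2 and NEUROD1, which drive neuron formation, also fell (log2 fold changes of -6.70, -7.52 and -6.22). LHX2, a forebrain LIM factor (-4.54 ± 0.69), ELAVL4, a neuronal RNA-binding protein (-4.20 ± 0.37), MAP2, a dendritic microtubule protein (-3.24 ± 0.34), and CRABP1, a retinoic acid-binding protein (-5.27 ± 0.92), also fell. RAX, a factor of the eye field, rose at a low level, with no read in pESCLC-FL6i and 17.4 and 21.98 in Epi-piPSC-FL6i (4.36 ± 0.48). RAX, NEUROD1 and CRABP1 were not called by edgeR (adjusted p of 0.0516, 0.0727 and 0.0554).

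Not every neural gene was lower in Epi-piPSC-FL6i. STMN2, a microtubule regulator of growing axons, had 12620.5 and 17587 normalized counts at passages 3 and 9 of pESCLC-FL6i and 28096 and 26938 in lines C10 and C11, the Epi-piPSC-FL6i lines being above both passages without passing (0.88 ± 0.31, limma adjusted p = 0.134). TUBB3, the neuronal beta-tubulin, had 31234 and 33041 in pESCLC-FL6i and 15496 and 17179 in Epi-piPSC-FL6i, again without passing (adjusted p = 0.094). FABP7, a fatty acid-binding protein of radial glia, was at 7426 and 7930.1 in pESCLC-FL6i and 6701 and 5768 in Epi-piPSC-FL6i. PAX6 and NES, a neural fate factor and the filament protein nestin of neural progenitors, had adjusted p of 0.104 and 0.0628, with PAX6 at 1666 and 561 in pESCLC-FL6i and 206 and 39.96 in Epi-piPSC-FL6i. With passage 9 left out the log2 fold changes were 1.12 for STMN2, -0.94 for TUBB3 and -3.28 for NES. Neural transcripts were thus present in both origins.

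Further lists were drawn up after the values had been seen and are descriptions only. Among 39 factors that mark domains of the neural tube, 26 passed the filter, 16 of them with one origin below the filter's minimum in both samples, so that these could enter only through the origin where they are high. Of the 26, 14 fell and 2 rose, beside 7.96% and 4.29% of all genes. PAX2, a factor of the midbrain-hindbrain boundary and of spinal interneurons, had 427 and 1168 normalized counts in pESCLC-FL6i and no read in Epi-piPSC-FL6i, at least 271-fold lower. The dorsal factors PAX3, PAX7, LBX1, TLX3, PRDM13, ZIC4 and ZIC5 fell, and NKX6-1, a ventral factor, and POU4F1, a sensory neuron factor, rose (6.33 ± 0.67 and 2.08 ± 0.33). PAX7 and PRDM13 were not called by edgeR (adjusted p = 0.0544 and 0.0585). NKX6-1 had 5.24 and 15.7 normalized counts at passages 3 and 9 of pESCLC-FL6i and 1034 and 649 in lines C10 and C11. Among 47 synapse and excitability genes, 27 fell and none rose, beside 7.96% and 4.29% of all genes, with a median of -4.58, and 16 of the 47 had one origin below the minimum in both samples. When the passage 9 library was left out 37 fell and 4 rose, beside 24.3% and 26.3% of all genes. NSG2, a neuronal vesicle protein and the DEG with the lowest fold change by the naming rule, had 1939 and 11980.3 normalized counts at passages 3 and 9 of pESCLC-FL6i and 3.86 and 0 in lines C10 and C11 (-11.09 ± 1.28, limma adjusted p = 0.0263). SYT4, a synaptotagmin, had 769.8 and 2900.1 in pESCLC-FL6i and 0.965 and 0 in Epi-piPSC-FL6i (-10.06 ± 0.87), and SLC32A1, the vesicular transporter of GABA and glycine, was at 0 in both Epi-piPSC-FL6i libraries, at least 137-fold lower. The synapse sum was 43910.0 and 107411 normalized counts in pESCLC-FL6i and 13204 and 12717 in Epi-piPSC-FL6i, with passage 9 above passage 3. Other DEGs named by the rule on this side were SEZ6, LAMP5, VSTM2L, PRDM8, ADCYAP1, CLVS1 and DPP6, with log2 fold changes from -10.01 (SEZ6) to -9.19 (DPP6). These genes and PAX2, NSG2, SYT4 and SLC32A1 passed the filter only through pESCLC-FL6i, where they are high. Of 8 anterior patterning genes tested, 5 of them with one origin below the minimum in both samples, OTX2, RAX and EMX1 rose and LHX2 and FEZF1 fell.

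Mesoderm and endoderm genes gave 1 and 2 calls and trophectoderm genes gave 5, where 12.3% of all genes passed. These counts changed with the passage 9 library. With it left out, 1 rose (8.33%) and 3 fell (25%) in the mesoderm list, 6 rose (50%) and 3 fell (25%) in the endoderm list and 7 rose (63.6%) and 2 fell (18.2%) in the trophectoderm list, beside 26.3% and 24.3% of all genes. Of 12 mesoderm genes tested 1 fell, ISL1 (-3.86 ± 0.72, limma adjusted p = 0.0479), a LIM factor of heart and motor neurons that passed the filter only through pESCLC-FL6i, and none rose, while TBXT, MIXL1, MYOD1 and MYF5 had no read in the 4 libraries. Of 12 endoderm genes tested, FOXA3, a liver forkhead factor, rose (4.68 ± 0.50) and CXCR4, a chemokine receptor also used by neurons, fell (-1.80 ± 0.29), with AFP, CER1 and GATA5 at 0 in all 4. GATA6, a factor of primitive endoderm, had 0 and 55.02 normalized counts at passages 3 and 9 of pESCLC-FL6i and 433 and 624 in lines C10 and C11. It did not pass (log2 fold change 6.12, limma adjusted p = 0.128), and its log2 fold change was 9.02 with passage 9 left out. Of 11 trophectoderm genes tested, 3 rose and 2 fell (27.3% and 18.2%, beside 4.29% and 7.96%). KRT7, among these, passed the filter only through Epi-piPSC-FL6i, where it is high. The keratins KRT7, KRT8 and KRT18 rose and TFAP2A and TFAP2B, which are also neural crest factors, fell (-4.38 ± 0.37 and -4.34 ± 0.56), and CDX2 did not pass the filter. KRT8 had 266 and 128 in pESCLC-FL6i and 4776 and 8472 in Epi-piPSC-FL6i. Of 4 germ cell genes tested, 2 of them with one origin below the minimum in both samples, TFAP2C rose. Neither ISL1 nor CXCR4 was called by edgeR (adjusted p = 0.0552 and 0.0515).

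For fibroblast and mesenchyme markers the result depended on the passage 9 library. With it, 2 of 30 fell (6.67%) and none rose, beside 7.96% and 4.29% of all genes, with a median of -0.07. ZEB1 and FBLN1, an extracellular matrix fibulin (-1.81 ± 0.18), were the genes that fell with it. Without it, 20 rose and 5 fell, with a median of 1.46, beside 26.3% and 24.3% of all genes. COL3A1, type III collagen, had 29.4 and 53973 normalized counts at passages 3 and 9 of pESCLC-FL6i and 2583 and 3251 in lines C10 and C11. The Epi-piPSC-FL6i lines thus lay above passage 3 and far below passage 9.

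Signaling genes were examined for the pathways that FL6i feeds or blocks. With all samples BMP signaling had the most calls by count among these lists, which differ in length. By count this order changed with passage 9 left out. Of 26 BMP genes tested 7 fell in Epi-piPSC-FL6i and 1 rose (26.9% and 3.85%, beside 7.96% and 4.29% of all genes), with a median of -1.71. Of the 26, BMP5 and NOG passed the filter only through pESCLC-FL6i, where they are high. Without the passage 9 library 11 fell and 6 rose (42.3% and 23.1%), beside 24.3% and 26.3%, so that the share that rose was near that of all genes. ID2, ID3 and ID4 are inhibitory HLH proteins that BMP signals induce. ID4 had 2710.2 and 3835 normalized counts at passages 3 and 9 of pESCLC-FL6i and 98.5 and 61.9 in lines C10 and C11 (-5.35 ± 0.36, limma adjusted p = 0.0212), ID2 had 1474 and 1884 in pESCLC-FL6i and 206 and 152 in Epi-piPSC-FL6i (-3.23 ± 0.28), and ID3 had 2359 and 1928 in pESCLC-FL6i and 557 and 423 in Epi-piPSC-FL6i (-2.13 ± 0.24). The ligand BMP5 (-6.64 ± 1.24), the receptor BMPR1B (-2.96 ± 0.33), the signal transducer SMAD9 (-3.84 ± 0.69) and the homeobox target MSX1 (-3.29 ± 0.47) also fell. SMAD6, which inhibits BMP signals, rose (3.49 ± 0.59). ID1 had 1324 and 605 in pESCLC-FL6i and 268 and 216 in Epi-piPSC-FL6i. It did not pass with all samples (limma adjusted p = 0.0725), and its log2 fold change was -2.45 with passage 9 left out. With all samples, edgeR did not call BMP5, SMAD9 or SMAD6. The receptor BMPR1A and the transducers SMAD1 and SMAD5 had log2 fold changes between -0.20 (SMAD1) and 0.05 (BMPR1A) and did not pass.

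In the WNT list 5 of 37 genes fell and none rose (median -0.71). The share that fell was 13.5%, beside 7.96% of all genes. Of the 5 that fell, WNT7B, RSPO3 and WIF1 passed the filter only through pESCLC-FL6i, where they are high. The same held in the lists that follow for NODAL (through Epi-piPSC-FL6i) and for MAPK11, DLL3 and HES5 (through pESCLC-FL6i). With passage 9 left out 5 rose (13.5%) and 17 fell (45.9%), beside 26.3% and 24.3% of all genes. The counts of the lists that follow are to be read against the same shares, 4.29% higher and 7.96% lower with all samples and 26.3% and 24.3% without passage 9. The ligands WNT7B and WNT3 fell (log2 fold changes of -6.82 and -4.40), as did RSPO3, which amplifies WNT signals (-4.81), WIF1, which blocks WNT ligands (-4.78), and the kinase GSK3B (-0.90). WIF1 and GSK3B were not called by edgeR (adjusted p = 0.0553 and 0.0647). WNT7B had 1552 and 286 normalized counts at passages 3 and 9 of pESCLC-FL6i and 4.83 and 4.99 in lines C10 and C11. AXIN2, a common target of the pathway, had 2419.6 and 1153 in pESCLC-FL6i and 706 and 548 in Epi-piPSC-FL6i. It did not pass (limma adjusted p = 0.105), and its log2 fold change was -1.96 without passage 9. CTNNB1, beta-catenin, was at 15883 and 15139.7 in pESCLC-FL6i and 17784 and 16044 in Epi-piPSC-FL6i. For TGFB and NODAL, NODAL rose and TGFBI and LTBP1, a secreted TGFB target and a TGFB-binding matrix protein, fell (-2.85 ± 0.31 and -1.24 ± 0.19), 1 higher and 2 lower of 24, and 9 rose (37.5%) and 6 fell (25%) without passage 9. The p38 and JNK list had 3 lower and 1 higher of 23, and 6 rose (26.1%) and 7 fell (30.4%) without passage 9. MAPK11, a p38 isoform, had 673 and 398 in pESCLC-FL6i and 4.83 and 3.996 in Epi-piPSC-FL6i (-6.59 ± 0.51, limma adjusted p = 0.0212), and MAPK10, the neuronal JNK, had 500.3 and 548 in pESCLC-FL6i and 17.4 and 12.99 in Epi-piPSC-FL6i (-5.03 ± 0.41). GADD45G, a stress-induced activator of this pathway, also fell (-2.33 ± 0.34), and MAP2K6, which activates p38, rose (1.58 ± 0.25). MAPK14 and MAPK8, the inhibited kinases, did not pass (adjusted p = 0.078 and 0.151). With passage 9 left out the log2 fold change was 0.76 for MAPK14 and -0.42 for MAPK8.

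In the FGF and ERK list 1 of 28 rose, the receptor FGFR4 (3.80 ± 0.52, limma adjusted p = 0.0319), and none fell. This count changed with the passage 9 library, and 14 rose (50%) and 4 fell (14.3%) when it was left out. In the LIF and STAT3 list 1 of 22 fell, the kinase PIM3 (-3.06 ± 0.50), and SOCS3, the feedback inhibitor of LIF signals, had 947 and 2429 in pESCLC-FL6i and 303 and 294 in Epi-piPSC-FL6i without passing (adjusted p = 0.0612). In the LIF and STAT3 list 6 rose (27.3%) and 7 fell (31.8%) without passage 9, SOCS3 among the latter. In the NOTCH list 2 of 23 fell, and 2 rose (8.7%) and 12 fell (52.2%) without passage 9. DTX1, a NOTCH regulator, had 301 and 639 in pESCLC-FL6i and 17.4 and 20.98 in Epi-piPSC-FL6i (-4.45 ± 0.55), and the receptor NOTCH3 had 2728 and 1954 in pESCLC-FL6i and 692 and 404 in Epi-piPSC-FL6i (-2.12 ± 0.36), a change that edgeR did not call (adjusted p = 0.0551). DLL1, DLL3 and HES5, ligands and a target, were each higher at passage 3 than at passage 9 and did not pass (adjusted p of 0.116, 0.117 and 0.146). With passage 9 left out their log2 fold changes were -3.41, -6.92 and -6.95. DLL3 and HES5 passed the filter only through pESCLC-FL6i, where they are high. HES5 had 1088 and 41.9 normalized counts at passages 3 and 9 of pESCLC-FL6i and 6.76 and 8.99 in lines C10 and C11.

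Among 15 cell cycle brakes, CDKN2A, which encodes p16 and ARF, rose (5.70 ± 0.85), from 0 and 2.62 to 128 and 74.9 normalized counts, and so passed the filter only through Epi-piPSC-FL6i. RB1, RBL2 and CDKN1B, the retinoblastoma proteins and p27, fell (-1.84 ± 0.29, -1.30 ± 0.22 and -1.50 ± 0.21). CDKN2A and RBL2 were not called by edgeR (adjusted p = 0.0518 and 0.0516), and 4 rose (26.7%) and 9 fell (60%) of the brakes without passage 9. None of 18 proliferation genes passed, although all 18 had a positive fold change (median 2.20). With passage 9 left out 12 of the 18 rose, beside 26.3% of all genes, and the median was 0.53. TOP2A, the topoisomerase of dividing cells, had 14169.6 and 961 normalized counts at passages 3 and 9 of pESCLC-FL6i and 14447 and 13952 in lines C10 and C11.

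None of 9 DNA methylation enzymes tested was called by limma (GADD45A and GADD45B, demethylation factors, included). DESeq2 called 2 of them higher and edgeR 0, and limma without the passage 9 library called 3 higher (33.3%, near the 26.3% of all genes). DNMT3B, a de novo methyltransferase, came closest (4.96 ± 0.96, limma adjusted p = 0.051, and 3.63 without passage 9). It had 1340.4 and 209.6 normalized counts at passages 3 and 9 of pESCLC-FL6i and 15249 and 18038 in lines C10 and C11. TET3, a 5-methylcytosine oxidase, had 865 and 964 in pESCLC-FL6i and 610.2 and 680.3 in Epi-piPSC-FL6i (-0.50 ± 0.20). Of 15 imprinted genes tested 3 fell and none rose, while 3 rose (20%) and 10 fell (66.7%) without passage 9. MEST, a paternally expressed hydrolase, had 5257 and 6185 normalized counts at passages 3 and 9 of pESCLC-FL6i and 348 and 451 in lines C10 and C11 (-3.85 ± 0.23, limma adjusted p = 0.0212). PEG3, a zinc finger protein, had 2919 and 7131 in pESCLC-FL6i and 573 and 481 in Epi-piPSC-FL6i (-3.12 ± 0.49), and DIRAS3, a small GTPase, had 2004 and 2628 in pESCLC-FL6i and 317 and 332 in Epi-piPSC-FL6i (-2.82 ± 0.23). PEG10, the most abundant of the list, was at 17663 and 39608 in pESCLC-FL6i and 29177 and 34074 in Epi-piPSC-FL6i. It did not pass with all samples, and its log2 fold change was 0.84 without passage 9. None of 19 glycolysis genes was called by limma or edgeR, while DESeq2 called 4 higher and 2 lower, and 5 rose (26.3%) and 3 fell (15.8%) without passage 9. GAPDH, a glycolytic enzyme, had 86069.6 and 52666 in pESCLC-FL6i and 90028 and 87256 in Epi-piPSC-FL6i. Of 13 genes of the mitochondrial genome ND6, a subunit of complex I, rose (1.88 ± 0.27). Of 18 interferon response genes HERC5, an ISG15 ligase, rose (3.15 ± 0.38) and IFI44L, an interferon-induced protein, fell (-3.76 ± 0.49). In 4 of the 18, IFI44L among them, one origin was below the filter's minimum in both samples. Of 17 immediate early and stress genes ASNS, asparagine synthetase of the amino acid response, rose (1.25 ± 0.17). Without passage 9, 7 rose (53.8%) and 0 fell (0%) of the mitochondrial genes, 3 rose (16.7%) and 5 fell (27.8%) of the interferon genes and 8 rose (47.1%) and 1 fell (5.88%) of the stress genes.

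Whether the difference between origins depended on the medium was examined in FLB2i. Over the 8 samples, 487 of 15248 genes (3.19%) passed a test of the difference in FL6i minus the difference in FLB2i, 177 positive (1.16%) and 310 negative (2.03%). The comparisons share no sample, and across the 15248 genes the differences had a Pearson r of 0.468, a description over genes that share normalization. Of the 960 DEGs in FL6i, 254 passed. Of the 487, 284 had differences of opposite sign in the 2 media. Leaving out 1 library moved the count of 487 to between 0, without either Epi-piPSC-FLB2i sample (2008 and 2239 genes at an unadjusted p under 0.05), and 4154, without passage 3 of pESCLC-FL6i, and it was 1254 without passage 9. DESeq2 called 2083 and edgeR 345. The FL6i and FLB2i samples carried different line codes, and the pESCLC-FLB2i cells had been moved from FL6i. Medium, line and earlier culture thus cannot be told apart.

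Of 27 HOX genes tested 20 passed with a negative difference, beside 2.03% of all genes, and none with a positive one. HOXA9 was at 57.7 and 115 in pESCLC-FLB2i and 2707 and 2415 in Epi-piPSC-FLB2i, the reverse of the order in FL6i, and its difference between media was -14.12 ± 0.72 (SE, limma adjusted p = 0.00309). HOXA5 was at 499 and 923 in pESCLC-FLB2i and 4033 and 3691 in Epi-piPSC-FLB2i, again higher in the episomal line (-12.55 ± 0.68, limma adjusted p = 0.00311). HOXA10 was at 0 and 1.97 in pESCLC-FLB2i and 229.7 and 151 in Epi-piPSC-FLB2i (-13.10 ± 1.19, limma adjusted p = 0.00962). Summed over 34 genes, HOX levels were 13944 and 14332 normalized counts in pESCLC-FLB2i and 23418 and 21656 in Epi-piPSC-FLB2i, so that Epi-piPSC-FL6i alone of these 4 groups was low. The primary outgrowths had 3752 and 510.5, and pESCLC-F, grown with FGF2, had 194 and 212.

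The 3 named genes with the largest positive difference were read in Epi-piPSC-FL6i and low in the other inhibitor-medium groups. HSD17B2 was at 0 and 7.88 in pESCLC-FLB2i and 0 and 0.922 in Epi-piPSC-FLB2i (12.35 ± 1.46, limma adjusted p = 0.0154), and TFAP2D had no read in any of the 4 FLB2i libraries (9.85 ± 0.73, limma adjusted p = 0.00853). Both passed the filter only through Epi-piPSC-FL6i, where they are high. With no FLB2i read, the difference of TFAP2D restates its change in FL6i. TFAP2D was not called by edgeR (adjusted p = 1.00). SLFN11, a factor that blocks replication in cells with damaged DNA, had no read in pESCLC-FL6i, 153 and 104 in Epi-piPSC-FL6i and 16.9 and 13.8 in pESCLC-FLB2i and 1.03 and 1.84 in Epi-piPSC-FLB2i (9.75 ± 0.76, limma adjusted p = 0.00853). ESRRB was at 27.7 and 47.3 in pESCLC-FLB2i and 3.105 and 10.1 in Epi-piPSC-FLB2i, and its difference of 8.35 ± 1.01 (SE, limma adjusted p = 0.0166) passed as well. The rise of LIN28A and KRT8 did not pass this test. LIN28A was at 32.3 and 0.985 in pESCLC-FLB2i and 2209.5 and 1940.2 in Epi-piPSC-FLB2i (3.10 ± 2.42, limma adjusted p = 0.499), and KRT8 was at 442 and 77.8 in pESCLC-FLB2i and 9447 and 5402 in Epi-piPSC-FLB2i (-0.16 ± 1.16, limma adjusted p = 0.951), with Epi-piPSC higher in both media.

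Of 25 neural ectoderm genes tested, 3 passed with a negative and 2 with a positive difference between media, beside 2.03% and 1.16% of all genes. DCX and ZIC1 were lower in Epi-piPSC in both media. DCX was at 3021 and 1151 in pESCLC-FLB2i and 243 and 303 in Epi-piPSC-FLB2i (-5.81 ± 0.86, limma adjusted p = 0.0278), and ZIC1 was at 8620.2 and 11192 in pESCLC-FLB2i and 2140.2 and 2404 in Epi-piPSC-FLB2i (-6.73 ± 0.83, limma adjusted p = 0.0175). NEUROG2 was lower in Epi-piPSC in FL6i and higher in FLB2i, at 80.02 and 25.6 in pESCLC-FLB2i and 191 and 248 in Epi-piPSC-FLB2i (-9.76 ± 1.19, limma adjusted p = 0.0167). STMN2, which did not pass within FL6i, was lower in Epi-piPSC in FLB2i, at 16060.2 and 23893 in pESCLC-FLB2i and 1366 and 2132 in Epi-piPSC-FLB2i (4.40 ± 0.46, limma adjusted p = 0.0117). RAX, the remaining gene, was read at most at 0.985 normalized counts in FLB2i and passed the filter only through Epi-piPSC-FL6i. NEUROG1, at 90.8 and 4.93 in pESCLC-FLB2i and 53.8 and 127 in Epi-piPSC-FLB2i, overlapped between origins in FLB2i, and its difference between media did not pass (adjusted p = 0.0627).

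**Figure D5:**
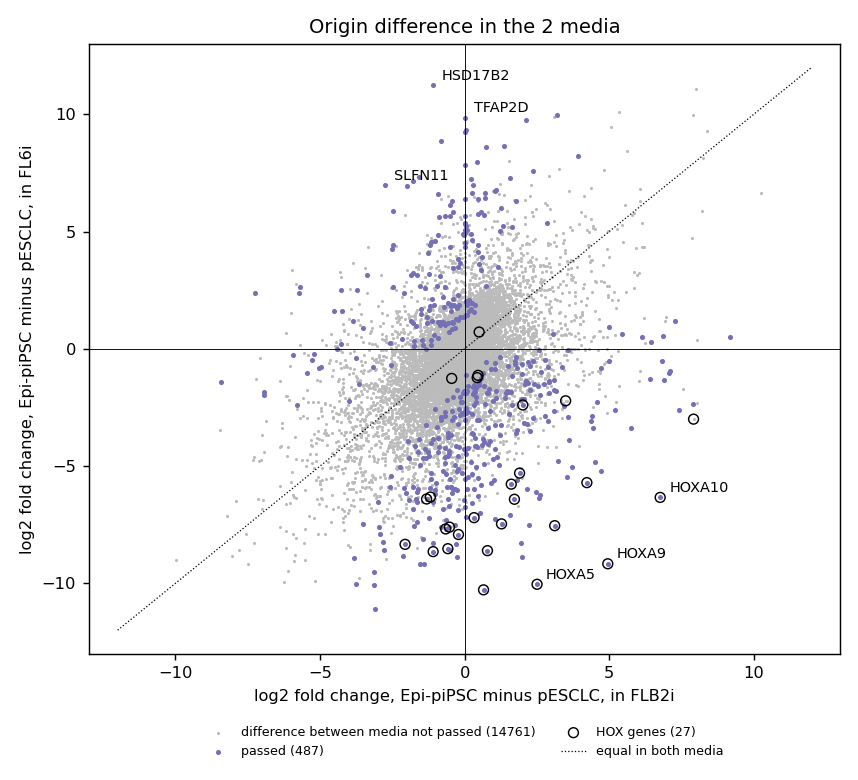
Log2 fold change of Epi-piPSC against pESCLC in FL6i (vertical axis) against that in FLB2i (horizontal axis) for 15248 genes, with the 487 genes whose difference between media passed in purple, HOX genes circled and a dotted line of equal change. Most circled genes lie low on the vertical axis and near or right of 0 on the horizontal axis, HOXA9, HOXA10 and HOXA5 farthest from the line.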

How the data were processed

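RNA-seq had been made from 14 samples in 7 groups, and the 4 FL6i samples and the 4 FLB2i samples were tested here. Per the study's methods, the authors made stranded mRNA libraries, aligned reads to Sscrofa11.1 with TopHat (2.1.0 in the submitters' processing notes), counted them per gene with HTSeq and normalized the counts with DESeq2. The deposited values are such normalized counts, a signal scaled by 1 size factor per sample over all 14 samples. All 100% of the values were whole multiples of what 1 read is worth in their sample (tolerance 1e-06), so whole reads were recovered. Depth was 6193659 to 17582502 reads on genes in the 4 FL6i libraries. Floors cover counting error only, while the SE after ± reflects the spread between samples in the limma fit.

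Normalized counts were taken as log2(value + 1) for genes with at least 10 in at least 2 of the samples compared, and tested with limma 3.58.1 (trend) in R 4.3.3, with Benjamini-Hochberg adjustment over all genes tested. edgeR 4.0.16 and DESeq2 1.42.0 on the recovered reads, other pseudocounts, filters, size factors, a fit on all 14 samples, a replicate block and leaving out each sample were alternatives. The number 1 or 2 in the labels did not pair the samples: over 14452 genes the deviations of same-numbered samples had r = 0.0812. By the codes in the labels, replicates are passages of one line (pESCLC-FL6i, pESCLC-FLB2i and Epi-piPSC-FLB2i) or a line each (Epi-piPSC-FL6i), so p-values measure only that spread. Gene IDs came with symbols for 14151 of 19588 genes. Coordinates are RefSeq positions on Sscrofa11.1, matched by symbol.

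Genes were named by a rule: plasmid and listed pluripotency factors whatever their values, the 12 largest DEGs with a symbol in each direction, up to 4 passing members of each of 29 gene lists, and the 3 largest differences between media in each direction. Others named in the text were chosen after their values were seen, as were 3 further lists (neural tube domain factors, synapse and excitability, anterior patterning). The members and all lists were chosen with earlier results of these data known. The values of some genes and of 1 gene list are not reported here. The limma, edgeR and DESeq2 fits were tested on simulated reads with known fold changes.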

Additional observations from a re-analysis of the deposited data

Results flagged for a closer look

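The difference between origins itself differed between FL6i and FLB2i for 487 of 15248 genes, by the test of that difference over 8 samples (limma with Benjamini-Hochberg adjustment). Of the 6 genes named by rule, 3 were HOX genes. HOXA9 had a difference of -14.12 ± 0.72 (SE, limma adjusted p = 0.00309), with log2 fold changes of -9.17 in FL6i and 4.95 in FLB2i. For HOXA10 the difference was -13.10 ± 1.19 (SE, limma adjusted p = 0.00962), with -6.34 and 6.76, and for HOXA5 it was -12.55 ± 0.68 (SE, limma adjusted p = 0.00311), with -10.04 and 2.51. All 3 were lower in both Epi-piPSC-FL6i lines than in both pESCLC-FL6i passages, and higher in both Epi-piPSC-FLB2i samples than in both pESCLC-FLB2i samples. Without the passage 9 library their differences were -14.7, -13.3 and -13.1.

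In the other direction HSD17B2 had a difference of 12.35 ± 1.46 (SE, limma adjusted p = 0.0154), TFAP2D one of 9.85 ± 0.73 (SE, limma adjusted p = 0.00853) and SLFN11 one of 9.75 ± 0.76 (SE, limma adjusted p = 0.00853). HSD17B2 and TFAP2D passed the filter only through Epi-piPSC-FL6i, where they are high, and the TFAP2D difference restates its change in FL6i. SLFN11 was higher in Epi-piPSC in FL6i (6.99) and lower in FLB2i (-2.76). TFAP2D was at 0 in all 4 FLB2i libraries and was not called by edgeR (adjusted p = 1.00). The FL6i and FLB2i samples carried different line codes, and the pESCLC-FLB2i cells had been moved from FL6i. Medium, line and earlier culture thus cannot be told apart.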

How the results depend on the processing

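The 960 DEGs became 1473 with DESeq2 on recovered reads, 1461 with a fold change of at least 3 on the linear scale in place of the log2 scale, and 1771 with no minimum fold change. Higher DEGs (257) were 396 in the fit on all 14 samples, 425 with the fold change of at least 3 and 620 with no minimum, and lower DEGs (703) were 1136 with DESeq2 and 1151 with no minimum. The 1771 genes that passed were 5370 in the fit on all 14 samples and 3829 with DESeq2. The 487 genes that differed between media were 1307 in the fit on all 14 samples and 2083 with DESeq2. The replicate block, whose numbers are shared without pairing the samples, gave 926 genes that passed, 750 DEGs and 254 genes that differed between media. Leaving out 1 sample gave 0 to 2115 DEGs (0 to 650 higher, 0 to 1465 lower), 0 to 9695 genes that passed and 0 to 4154 that differed between media. A lone sample was there assumed to vary like the other groups. The higher ends came without passage 3 of pESCLC-FL6i and the DEG count was 1413 without passage 9. The count between media was 1254 without passage 9, 29 and 28 without C10 and C11 of Epi-piPSC-FL6i, 388 and 188 without either pESCLC-FLB2i sample, and 0 without either Epi-piPSC-FLB2i sample. The cause was not tested in any of these.

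Of the genes named by the rule, direction reversed for KLF4, at -0.25 without passage 3 of pESCLC-FL6i (2.87 with all samples and 5.99 without passage 9), and for ENO1, at -0.61 without passage 9 (0.18 with all samples and 0.97 without passage 3). Outside that set, COL1A1 and COL3A1 lay below both Epi-piPSC-FL6i lines at passage 3 and above them at passage 9. Among the named genes, 12 calls were lost with edgeR, with a pseudocount of 0.1 and without the filter, 18 with the block, and 83 when C10 or C11 was left out. Taking all genes above 0 moved the median fold change of all genes from -0.05 to -0.15. At passage 9, 3 reads correspond to 7.86 normalized counts, and lower levels there cannot be told from 0.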

Other observations

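Some developmental genes, chosen after their values were seen, differed between the pESCLC-FL6i libraries, which are labelled as passages of one line. EMX2, a forebrain and urogenital homeobox factor, had 0 and 209.6 normalized counts at passages 3 and 9 of pESCLC-FL6i and 2054 and 2806 in lines C10 and C11. Its log2 fold change was 7.37 ± 2.74 (limma adjusted p = 0.148), and 11.23 without passage 9. GREM1, a secreted antagonist of BMP, had 3.15 and 228 in pESCLC-FL6i and 959 and 691 in Epi-piPSC-FL6i. FST, a secreted antagonist of activin, had 7.34 and 291 in pESCLC-FL6i and 1058 and 930.0 in Epi-piPSC-FL6i. For both, passage 9 lay between passage 3 and the Epi-piPSC-FL6i lines, and limma did not call them with all samples (adjusted p = 0.192 and 0.182). With passage 9 left out the log2 fold changes were 7.62 for GREM1 and 6.90 for FST. DLK1, a paternally expressed inhibitor of differentiation, ran the other way and did not pass (limma adjusted p = 0.102). It had 177 and 4991 normalized counts at passages 3 and 9 of pESCLC-FL6i and 9.65 and 21.98 in lines C10 and C11. Without passage 9 its log2 fold change was -3.51. ATOH1, the bHLH factor of dorsal interneurons and cerebellar granule cells, was read at passage 3 (632) and had no read at passage 9.

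The Y-linked EIF1AY and KDM5D were summed in each sample. Primary outgrowths had 338 and 9.84 normalized counts, and lentivirally induced cells had 847 and 1077. The pESCLC-F sums were 18.8 and 12.1. In FLB2i, pESCLC had 10.8 and 13.8, while the episomal line had 13.5 and 5.53. In FL6i, passages 3 and 9 of pESCLC-FL6i had 7.34 and 113, and lines C10 and C11 had 819.7 and 729. No test was made of these sums. Lines C10 and C11 lay above both pESCLC-FL6i passages and above both Epi-piPSC-FLB2i samples. Y-linked content thus cannot be told apart from origin in FL6i, or from medium within Epi-piPSC. As single genes, EIF1AY and KDM5D did not pass in FL6i (log2 fold changes of 4.38 and 5.33, limma adjusted p = 0.0927 and 0.119). Without passage 9 these changes were 6.08 and 7.72.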
